A study of Mus musculus with 12 samples.

Results

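The genes described here are 10 genes of neutrophils and acute inflammation, listed by symbol and measured as RNA in bulk B16 melanomas. They are the neutrophil genes S100a8, S100a9, Csf3r and Cxcr2, the IL-1 pathway genes Il1b and Il1r2, the cytokine genes Tnf and Il6, and Cxcl1 and Cxcl2, which encode ligands of CXCR2. All 10 were found among the 32416 gene symbols of the expression table. Their values are given as TPM (transcript abundance scaled for transcript length and for the library's total), so levels of different genes can be set side by side.

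Neutrophils are short-lived granulocytes that leave the bone marrow under the growth factor G-CSF and enter inflamed tissue along gradients of CXCR2 ligands. Tissue macrophages, stromal cells and tumour cells can make these ligands after IL-1 or TNF signalling, which acts through NF-kB transcription factors. In tumours, neutrophils and related myeloid cells are known for effects on T cells, on vessels and on the spread of tumour cells.

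The study measured 12 subcutaneous tumours of the B16 mouse melanoma line, grown in C57BL/6 mice. In the B16mhgp100 model, 4 tumours over-expressed Aoah, the gene of the lipase acyloxyacyl hydrolase, and 4 carried the empty Vector, and all of these mice received anti-PD1 from day 10. In the B16F10 model, 2 tumours over-expressed Aoah and 2 carried Vector, and all received anti-PD1 with anti-CTLA4 from day 6. Each antibody was given at 200 µg per dose for 4 doses, 2 a week, with harvest 1 day after the last. No untreated tumours were included, and neither the ages of the mice nor the promoter that drives Aoah is stated in the labels. Model, antibodies and first dose day change together and cannot be told apart. The labels do not say which tumours had a mouse of their own. The p-values therefore reflect tumour-to-tumour spread, which may be technical in part. In bulk RNA, fewer cells of a type cannot be told apart from less RNA per cell.

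The libraries held between 13775 and 14791 genes at 1 TPM or more. The library labelled B16mhgp100 Aoah 4 stood apart. Its correlation with the others across genes was at most 0.852, and its 7 keratinocyte markers summed to 4241.79 TPM against at most 27.32 TPM in any other library. Aoah itself stood at 3.91 TPM there, inside the range of 0.89 to 7.58 TPM of the B16mhgp100 Vector tumours, while the other 3 Aoah tumours held 13.96 to 22.46 TPM. In B16F10, Aoah was at 21.75 and 23.73 TPM in the Aoah tumours and at 1.49 and 0.75 TPM in the Vector tumours. Directions in B16mhgp100 rest in part on a library whose label this gene does not check. The 5 melanocyte markers summed to 5979.72 to 13495.32 TPM, with the lowest sum in Aoah 4.

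All 10 genes were low. The highest single value was 15.79 TPM, for S100a8, and the 10 genes together summed to between 3.81 and 60.83 TPM per library. The sum was largest in B16mhgp100 Aoah 4 (60.83 TPM), Aoah 2 (55.06 TPM) and Vector 1 (29.04 TPM), and smallest in B16F10 Vector 2 (3.81 TPM) and B16mhgp100 Vector 2 (5.96 TPM). Aoah 4 held the highest value of 5 genes and Aoah 2 that of 4. The remaining gene, Cxcl2, was highest in Vector 1. The mean normalised count of a member, in the authors' deposited tables, ranged from 7.13 for Cxcr2 to 64.4 for Csf3r in B16mhgp100, and from 0.230 for Cxcr2 to 52.9 for Csf3r in B16F10. Reads per library are unknown, because TPM keeps no depth.

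**Figure D1:**
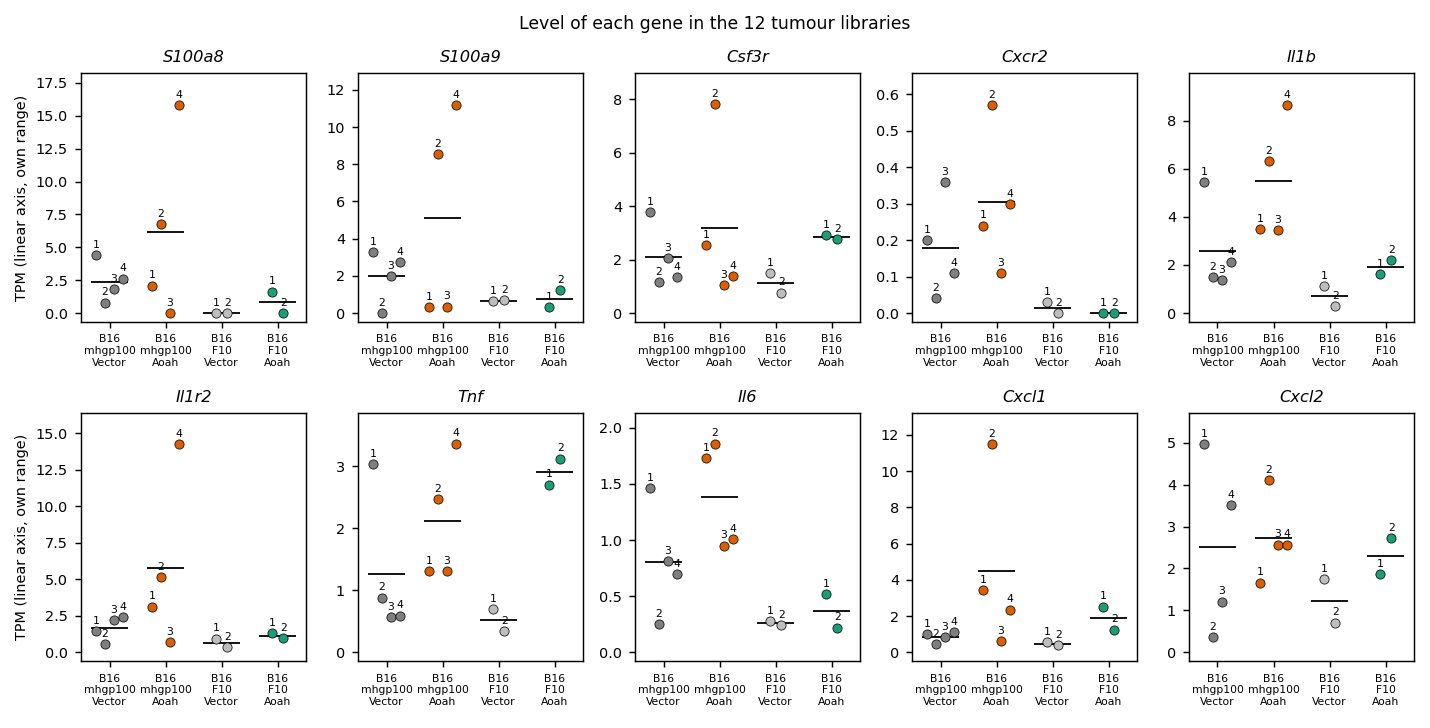
Level of each gene in TPM (vertical axis, linear, with its own range per gene) in the 4 groups. Points are single tumours marked with their replicate number, and bars are group means. S100a8 reaches 15.79 TPM in B16mhgp100 Aoah 4, Cxcl1 reaches 11.47 TPM in Aoah 2, and Tnf lies higher in both B16F10 Aoah tumours than in both B16F10 Vector tumours.

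S100a8 and S100a9 encode the subunits of calprotectin, an abundant protein of the neutrophil cytoplasm that activated keratinocytes also make. They are direct neighbours on chromosome 3, with 0 annotated genes between them. In B16mhgp100, S100a8 (ENSMUSG00000056054) stood at 2.08, 6.77, 0.00 and 15.79 TPM in Aoah 1 to Aoah 4 and at 4.38, 0.79, 1.79 and 2.62 TPM in Vector 1 to Vector 4. The Aoah tumours held both the highest value and the only value listed at 0, so the groups overlapped. In B16F10 it was listed at 0 in both Vector tumours and in Aoah 2, and at 1.62 TPM in Aoah 1.

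S100a9 (ENSMUSG00000056071) stood at 0.32, 8.54, 0.34 and 11.17 TPM in the B16mhgp100 Aoah tumours and at 3.29, 0.00, 1.97 and 2.75 TPM in the Vector tumours. Aoah 2 and Aoah 4 lay above every Vector tumour, and Aoah 1 and Aoah 3 lay below 3 of the 4. In B16F10 the values were 0.30 and 1.25 TPM in Aoah and 0.64 and 0.70 TPM in Vector tumours. The pair was not tied in every library. In Aoah 1, S100a8 was at 2.08 TPM and S100a9 at 0.32 TPM, and in both B16F10 Vector tumours S100a9 was measured while S100a8 was listed at 0.

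The log2(TPM + 1) difference between Aoah and Vector tumours of B16mhgp100 was 0.51 for S100a8 (SE 0.79, 95% interval -1.28 to 2.30) and 0.53 for S100a9 (SE 0.84, 95% interval -1.37 to 2.42). Neither passed in limma (adjusted p = 0.760 and 0.765). Both differences turned below 0 without Aoah 4, to -0.12 and -0.04. Keratinocyte markers were also highest in Aoah 4. Krt14 and Krt10, keratins of the epidermis, stood at 600.09 and 3281.32 TPM in Aoah 4, and the part of keratinocytes in the S100a8 and S100a9 values was not tested. In Aoah 2, the library with the next highest values of both genes, the 7 keratinocyte markers summed to 1.20 TPM. In Aoah 3, where S100a8 was listed at 0, they summed to 23.75 TPM. In Vector 1, where S100a8 and S100a9 stood at 4.38 and 3.29 TPM, they summed to 27.32 TPM.

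Csf3r encodes the G-CSF receptor, which drives neutrophil production and is also present on some monocytes. In B16mhgp100, Csf3r (ENSMUSG00000028859) stood at 2.54, 7.81, 1.05 and 1.38 TPM in the Aoah tumours and at 3.79, 1.16, 2.05 and 1.33 TPM in the Vector tumours. Aoah 2 lay above every other tumour, and the other 3 Aoah tumours lay within or below the range of the Vector tumours. The difference was 0.26 (SE 0.47, 95% interval -0.81 to 1.33, limma adjusted p = 0.789), and it was -0.18 without Aoah 2. In B16F10 the values were 2.91 and 2.78 TPM in Aoah and 1.50 and 0.76 TPM in Vector tumours, 2 tumours each. That difference was 0.87 (SE 0.29, 95% interval 0.15 to 1.60) and did not pass (limma adjusted p = 0.211).

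Cxcr2 encodes the chemokine receptor by which neutrophils follow CXCL1 and CXCL2. It was the lowest of the 10 genes. Cxcr2 (ENSMUSG00000026180) stood at 0.24, 0.57, 0.11 and 0.30 TPM in the B16mhgp100 Aoah tumours and at 0.20, 0.04, 0.36 and 0.11 TPM in the Vector tumours. In B16F10 it was listed at 0 in both Aoah tumours and in Vector 2, and at 0.03 TPM in Vector 1. No library reached 1 TPM, so the gene was left out of every test.

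Further neutrophil genes ranged widely. Of 20 other genes in this list, Ly6g, which encodes the surface marker of mouse neutrophils, has no row in the table used here, and 9 of the rest passed the filter in B16mhgp100. Mpo and Elane, granule enzymes made early in neutrophil development, were listed at 0 in every library but B16mhgp100 Aoah 4, at 0.20 and 0.09 TPM. Camp and Ngp, granule genes of later stages, did not exceed 0.18 and 0.10 TPM in any library. Other granule genes of the list were mixed in Aoah 2 and Aoah 4, the tumours with the most S100a8 and S100a9. The gelatinase gene Mmp9 was highest there, at 5.08 and 4.56 TPM, as was the proteinase gene Prtn3, at 1.14 and 1.89 TPM. Lcn2, which encodes lipocalin 2, stood at 69.02 and 12.88 TPM there, but at 13.63 TPM in Aoah 1. Mmp8 stood at 0.09 and 0.39 TPM there, below the 0.67 TPM of Aoah 1. Ltf stood at 0.58 and 0.36 TPM there, below the 0.68 TPM of B16F10 Vector 1.

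Several tested genes of this list, such as Fpr2 and Clec4e, are also known from macrophages. In B16mhgp100, 7 of 9 had a difference above 0, beside 30.0% of all genes. Their median was 0.69 beside -0.20, and 0 passed. Without Aoah 4 the median of all genes was -0.02. The 30.0% and -0.20 set beside this and later lists thus rest in part on that library. Fpr2, a receptor for formyl peptides, stood at 3.47, 9.70, 1.99 and 5.25 TPM with Aoah, against 2.37, 0.54, 2.31 and 0.92 TPM with Vector, a difference of 1.19 (SE 0.43, limma adjusted p = 0.694). Lcn2 stood at 0.29 TPM in Aoah 3 against 69.02 TPM in Aoah 2, and its difference of 1.50 (SE 1.04) was small beside that spread. In B16F10, 7 genes were tested and 0 passed. Of these, 3, Fpr2, Clec4e and Lcn2, reached 1 TPM in the Aoah tumours alone, so they were tested only because of the group where they were high. Fpr2 stood at 2.53 and 2.63 TPM with Aoah, against 0.15 and 0.16 TPM with Vector, a difference of 1.63 (SE 0.24, limma adjusted p = 0.0663). Clec4e, a pattern receptor of myeloid cells, stood at 3.88 and 5.15 TPM with Aoah, against 0.62 and 0.58 TPM with Vector (limma adjusted p = 0.0711).

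Il1b encodes interleukin 1 beta, a cytokine made mainly by activated monocytes, macrophages and neutrophils. In B16mhgp100, Il1b (ENSMUSG00000027398) stood at 3.51, 6.33, 3.45 and 8.66 TPM in the Aoah tumours and at 5.45, 1.48, 1.36 and 2.12 TPM in the Vector tumours. Vector 1 alone kept the groups from separating, and the other 3 Vector tumours lay below all 4 Aoah tumours. The means were 5.49 ± 2.51 TPM and 2.60 ± 1.93 TPM (SD, n = 4 each). This gave a log2 difference of 0.90 (SE 0.39, 95% interval 0.01 to 1.79), which did not pass in limma (adjusted p = 0.694). It stayed between 0.68 and 1.22 when single libraries were left out.

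In B16F10, Il1b stood at 1.63 and 2.19 TPM in the Aoah tumours and at 1.12 and 0.28 TPM in the Vector tumours. The groups, of 2 tumours each, did not overlap. No share over all genes is given for this, so nothing is read from it. The difference was 0.81 (SE 0.34, 95% interval -0.03 to 1.66, limma adjusted p = 0.285). Both B16F10 groups lay below the B16mhgp100 Aoah group, whose lowest value was 3.45 TPM.

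Il1r2 encodes the decoy receptor of IL-1, which binds the cytokine without signalling and is made by neutrophils and some macrophages. In B16mhgp100, Il1r2 (ENSMUSG00000026073) stood at 3.13, 5.14, 0.69 and 14.23 TPM with Aoah, against 1.46, 0.55, 2.18 and 2.41 TPM with Vector. Aoah 1, Aoah 2 and Aoah 4 lay above all Vector tumours, and Aoah 3 lay among the lowest. The difference was 1.00 (SE 0.60, 95% interval -0.38 to 2.37, limma adjusted p = 0.694), and 0.46 without Aoah 4. In B16F10 the values were 1.29 and 0.96 TPM in Aoah and 0.93 and 0.38 TPM in Vector tumours, and the gene missed the filter there.

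The wider IL-1 list held 19 genes, of which 17 were tested in each model. In B16mhgp100, 8 lay above 0, beside 30.0% of all genes, with a median of -0.07 beside -0.20, and 0 passed. Without Aoah 4 the median of all genes was -0.02. Pycard, the inflammasome adaptor, stood at 134.90 TPM in Aoah 4 and at 13.91 to 40.44 TPM in the other Aoah tumours (difference 1.25, limma adjusted p = 0.694). In B16F10, 12 lay above 0, beside 51.6% of all genes, with a median of 0.48, and 0 passed in limma. At an unadjusted p below 0.05 there were 9, beside 18.2% of all genes in either direction, and 1 of them, the receptor gene Il1r1, was lower with Aoah (-0.77). Nlrp3 and Irak3 reached 1 TPM only in the Aoah tumours and Il1r1 only in the Vector tumours. Casp1, the protease that matures interleukin 1 beta, stood at 12.97 and 20.05 TPM with Aoah, against 5.94 and 3.71 TPM with Vector (difference 1.58, limma adjusted p = 0.120). Il1rn, which encodes the IL-1 receptor antagonist, was more abundant than Il1b in every library, at 5.35 to 42.23 TPM against 0.28 to 8.66 TPM.

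Tnf encodes tumour necrosis factor, made by activated macrophages and T cells. In B16F10, Tnf (ENSMUSG00000024401) stood at 2.70 and 3.12 TPM in the Aoah tumours and at 0.69 and 0.34 TPM in the Vector tumours. Both Aoah tumours lay well above both Vector tumours, with means of 2.91 ± 0.30 TPM and 0.52 ± 0.25 TPM (SD, n = 2 each). On the log2 scale they differed by 1.38 (SE 0.27, 95% interval 0.71 to 2.04). It did not pass in limma (adjusted p = 0.105). Tnf reached 1 TPM in this model in the Aoah tumours alone, so it was tested only because of the group where it was high. In the authors' deposited table, which came from DESeq2, the log2 fold change of Tnf was 2.49 (SE 0.87) at a mean normalised count of 23.8, with an adjusted p of 0.0478. The call therefore differed between the tests. In limma the difference was 1.54 without Vector 1 and 1.21 without Vector 2. Those fits assume that the lone Vector tumour varies like the Aoah group.

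T cell markers and the summed macrophage markers were higher in the same tumours as Tnf. The 4 T cell markers summed to 28.15 and 35.17 TPM in the B16F10 Aoah tumours and to 3.53 and 1.65 TPM in the Vector tumours. Of the 4, Cd8a, a marker of cytotoxic T cells, passed in limma at a difference of 3.25 (SE 0.27, adjusted p = 0.0286). Cd8a, at 0.64 and 0.36 TPM in the Vector tumours, passed the filter only through the Aoah tumours, as did 3 of the 4 markers in all. The 10 macrophage and monocyte markers summed to 773.16 and 707.29 TPM in Aoah and to 419.48 and 401.60 TPM in Vector tumours. Much of that sum was C1qa, at 397.30 and 329.89 TPM against 159.38 and 167.58 TPM. Of the 10 markers, 8 lay above 0, beside 51.6% of all genes, and 0 passed. Mrc1, the mannose receptor gene, was lower with Aoah, at 5.96 and 7.86 TPM against 18.86 and 11.35 TPM (-0.996, limma adjusted p = 0.211), as was Ccr2 (-0.32). The part of these cells in the Tnf values was not tested.

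In B16mhgp100, Tnf stood at 1.31, 2.47, 1.31 and 3.36 TPM in the Aoah tumours and at 3.03, 0.88, 0.57 and 0.59 TPM in the Vector tumours. All Aoah tumours lay above 3 of the Vector tumours, and Vector 1 lay above 3 of the Aoah tumours. The difference was 0.52 (SE 0.36, 95% interval -0.30 to 1.34, limma adjusted p = 0.694). It was 0.84 without Vector 1 and 0.34 without Aoah 4. Only 1 of the 4 Vector tumours reached 1 TPM.

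Of 19 genes for TNF receptors, adaptors and NF-kB targets, all were tested. In B16mhgp100, 9 lay above 0, beside 30.0% of all genes, with a median of -0.09 beside -0.20, and 0 passed. Without Aoah 4 the median of all genes was -0.02. Zfp36, an RNA-binding protein that limits Tnf mRNA, had the smallest p of the list, at a difference of 0.63 (SE 0.22, limma adjusted p = 0.694). In B16F10, 18 lay above 0, beside 51.6% of all genes, with a median of 0.34 beside 0.02. There 0 passed in limma, with 6 at an unadjusted p below 0.05 beside 18.2% of all genes. Vcam1, an adhesion molecule that TNF is known to induce, stood at 11.23 and 13.33 TPM with Aoah, against 3.79 and 1.90 TPM with Vector (difference 1.83, limma adjusted p = 0.0996). Tnfrsf1b, which encodes the second TNF receptor, stood at 14.09 and 13.91 TPM with Aoah, against 6.00 and 4.49 TPM with Vector (difference 1.27, limma adjusted p = 0.112).

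Il6 encodes interleukin 6, a driver of the acute phase response that signals through STAT3. In B16mhgp100, Il6 (ENSMUSG00000025746) stood at 1.73, 1.86, 0.95 and 1.01 TPM with Aoah, against 1.46, 0.25, 0.81 and 0.70 TPM with Vector. Vector 1 lay inside the Aoah range, and the other 3 Vector tumours lay below it. The difference was 0.42 (SE 0.26, 95% interval -0.16 to 1.01, limma adjusted p = 0.694). In B16F10 the values were 0.52 and 0.22 TPM in Aoah and 0.28 and 0.24 TPM in Vector tumours, all under 1 TPM, so the gene was not tested.

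Of 9 further genes of the IL-6 family and the STAT3 pathway, 8 were tested in B16mhgp100. Of these, 4 lay above 0, beside 30.0% of all genes, and 0 passed. Osm, which encodes oncostatin M, had a difference of 0.60 (SE 0.26, limma adjusted p = 0.694). In B16F10, 7 were tested, 4 lay above 0, beside 51.6% of all genes, and 0 passed. Socs3, a feedback inhibitor of STAT3 signalling, stood at 33.88 and 32.83 TPM with Aoah, against 18.45 and 18.86 TPM with Vector (difference 0.81, limma adjusted p = 0.138). Stat3 itself had a difference of 0.96 there (limma adjusted p = 0.215).

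Cxcl1 and Cxcl2 encode chemokines that bind CXCR2 and draw neutrophils into tissue. They are direct neighbours on chromosome 5, in a cluster that also holds Cxcl3, Cxcl5 and Ppbp. NF-kB is known to act on their promoters and on that of Il6, and these letters were searched for, since the genes are textbook targets of IL-1 and TNF. A kB-like motif, GGGA followed by any 4 bases and CC, was looked for on both strands in the 250 bases before the annotated start. It was found before 4 of the 10 genes, Cxcl1, Cxcl2, Il6 and Csf3r, and before 17.6% of all 32851 promoters in the RefSeq table (GRCm38.p6). Matches on opposite strands can overlap, as in GGGAATTTCCC. The sequences below are from RefSeq for GRCm38.p6, while the expression values were made on mm39. They read 5′ to 3′ on the strand of the gene, plus in all 3 cases, with the matches in capitals.
Cxcl1, chr5:90890995-90891244: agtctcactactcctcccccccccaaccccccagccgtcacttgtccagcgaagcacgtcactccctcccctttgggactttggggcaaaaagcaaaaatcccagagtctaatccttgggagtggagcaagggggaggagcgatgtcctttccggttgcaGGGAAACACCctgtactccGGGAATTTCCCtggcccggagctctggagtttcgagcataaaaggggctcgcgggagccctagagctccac
Cxcl2, chr5:90903649-90903898: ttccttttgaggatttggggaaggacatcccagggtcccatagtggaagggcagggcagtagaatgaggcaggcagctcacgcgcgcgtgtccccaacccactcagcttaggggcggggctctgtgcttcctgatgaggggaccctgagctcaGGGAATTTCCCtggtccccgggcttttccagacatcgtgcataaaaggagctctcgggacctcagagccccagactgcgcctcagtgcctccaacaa
Il6, chr5:30012864-30013113: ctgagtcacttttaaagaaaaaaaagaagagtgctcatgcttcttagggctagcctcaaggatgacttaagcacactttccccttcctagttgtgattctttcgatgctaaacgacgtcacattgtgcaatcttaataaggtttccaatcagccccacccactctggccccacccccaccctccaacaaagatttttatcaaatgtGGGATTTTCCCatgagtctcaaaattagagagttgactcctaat

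The 2 chemokine genes carried the same run, GGGAATTTCCC, at 71 bases before the start of Cxcl1 and at 97 bases before that of Cxcl2. Cxcl1 held a further match, GGGAAACACC, at 90 bases before its start, and the Il6 run GGGATTTTCCC lay 44 bases before its start. Their values across the tumours are given next.

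In B16mhgp100, Cxcl1 (ENSMUSG00000029380) stood at 3.42, 11.47, 0.60 and 2.36 TPM in the Aoah tumours and at 1.01, 0.44, 0.82 and 1.12 TPM in the Vector tumours. Aoah 1, Aoah 2 and Aoah 4 lay above all 4 Vector tumours, and Aoah 3 lay among them. The means were 4.46 ± 4.81 TPM and 0.85 ± 0.30 TPM (SD, n = 4 each). At 1.18 the log2 difference was the largest of the members in this model (SE 0.54, 95% interval -0.04 to 2.41, limma adjusted p = 0.694). Without Aoah 2 it was 0.65. In the authors' deposited table its log2 fold change was 2.53 (SE 0.80, adjusted p = 0.424).

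In B16F10, Cxcl1 stood at 2.52 and 1.25 TPM with Aoah, against 0.57 and 0.40 TPM with Vector, 2 tumours each. The difference was 0.92 (SE 0.31, 95% interval 0.14 to 1.71, limma adjusted p = 0.216). Cxcl1 reached 1 TPM in this model in the Aoah tumours alone, so it passed the filter only through the group where it was high.

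Cxcl2 (ENSMUSG00000058427) stood at 1.66, 4.10, 2.57 and 2.57 TPM in the B16mhgp100 Aoah tumours and at 4.97, 0.37, 1.21 and 3.51 TPM in the Vector tumours. The Vector tumours held both the lowest and the highest value. The difference was 0.27 (SE 0.46, 95% interval -0.77 to 1.31, limma adjusted p = 0.777), and it was -0.11 without Vector 2. In B16F10 the values were 1.86 and 2.73 TPM in Aoah and 1.75 and 0.71 TPM in Vector tumours, a difference of 0.59 (SE 0.34, limma adjusted p = 0.420).

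Of the 3 other CXCR2 ligands, only Cxcl5 passed the filter within a model. Cxcl5 stood at 3.11, 23.38, 0.00 and 6.87 TPM in the B16mhgp100 Aoah tumours and at 2.32, 0.48, 0.89 and 0.54 TPM in the Vector tumours. As for Cxcl1, Aoah 2 was the highest of the Aoah tumours and Aoah 3 the lowest. Its difference was 1.45 (SE 0.84, limma adjusted p = 0.694). In B16F10 it stood at 1.75 and 2.13 TPM with Aoah, against 0.79 and 0.08 TPM with Vector (difference 1.08, limma adjusted p = 0.190), and it too passed the filter only through the Aoah tumours. Among the growth factors, Csf3, which encodes G-CSF, did not exceed 1.58 TPM in any library, and Csf2 did not exceed 1.14 TPM.

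The first comparison asked which of the genes differ between Aoah and Vector tumours of B16mhgp100 under anti-PD1. Of the 10 genes, 9 passed the filter, and 0 of these passed in limma, where 0% of 14228 genes did. All 9 differences lay above 0, from 0.26 for Csf3r to 1.18 for Cxcl1, with a median of 0.52. Of all genes tested, 30.0% lay above 0 and the median was -0.20. With no filter, 10 of 10 lay above 0. Scaling the libraries by the median of ratios moved the median of all genes to -0.02 and left all 9 members above 0. At an unadjusted p below 0.05 there was 1 member, Il1b, beside 1.11% of all genes with the Aoah tumours higher. None of the 9 had groups that did not overlap, beside 0.731% of genes with the Aoah tumours higher. In the authors' deposited table all 10 log2 fold changes lay above 0 and 0 of 10 passed, with adjusted p from 0.424 to 0.902, where 0.0146% of the 20534 identifiers with an adjusted p did.

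The number above 0 depended on single libraries. It was 7 of 9 without Aoah 4, with S100a8 and S100a9 turning, 8 of 9 without Aoah 2, with Csf3r turning, and 8 of 9 without Vector 2, with Cxcl2 turning. With array weights it was 7 of 9. The background moved as well. The median of all genes, -0.20 in the main fit, was -0.02 without Aoah 4 and -0.0063 with array weights.

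**Figure D2:**
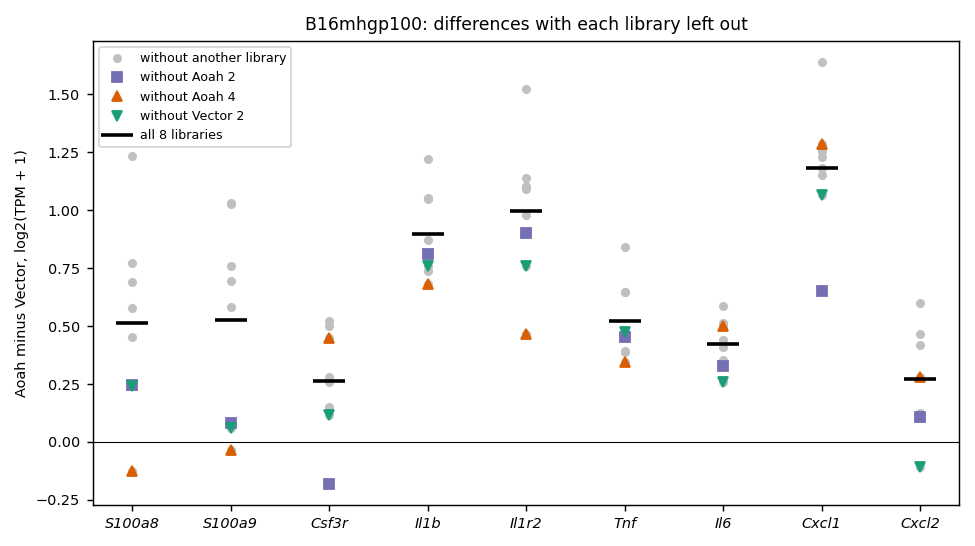
Difference between Aoah and Vector tumours of B16mhgp100 in log2(TPM + 1) (vertical axis) for the 9 tested genes. Bars are the values over all 8 libraries, coloured symbols leave out Aoah 2, Aoah 4 or Vector 2, and grey points leave out another library. S100a8 and S100a9 lie at -0.12 and -0.04 without Aoah 4, and Il1b stays between 0.68 and 1.22.

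The second comparison asked the same of B16F10 under both antibodies. Of the 10 genes, 5 passed the filter, and 0 of these passed in limma, where 0.344% of 14533 genes did. The 5 were Csf3r, Il1b, Tnf, Cxcl1 and Cxcl2, with differences from 0.59 for Cxcl2 to 1.38 for Tnf. For each of the 5 both Aoah tumours reached 1 TPM, while 1 Vector tumour did for Csf3r, Il1b and Cxcl2 and 0 did for Tnf and Cxcl1. The 5 thus entered through the group where they were high, so nothing is read from how many lay above 0 or did not overlap. S100a8, S100a9, Cxcr2, Il1r2 and Il6 missed the filter, and their differences, given without a test, ran from -0.02 for Cxcr2 to 0.69 for S100a8. Of the 10 genes, 4 had an adjusted p in the authors' deposited table, and of these Tnf alone passed, beside 8.53% of the 14328 identifiers with one.

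B16F10 Vector 2 stood at the low end of many of the genes. It was the lowest of the 12 libraries for Csf3r, Il1b, Il1r2, Tnf and Cxcl1, and the only library with none of the 10 genes at 1 TPM. Without it, the differences were 1.21 for Tnf, 0.62 for Csf3r, 0.45 for Il1b and 0.25 for Cxcl2. Such a fit assumes that the lone Vector tumour varies like the other group.

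**Figure D3:**
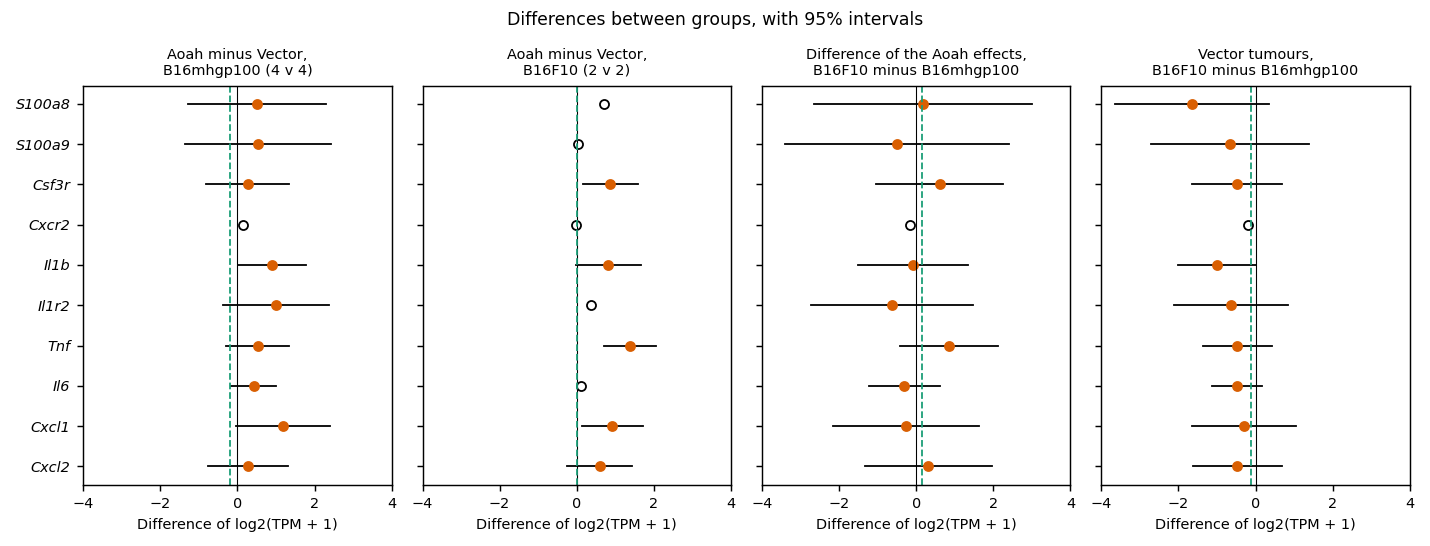
Differences in log2(TPM + 1) (horizontal axis, the same range in each panel) for the 10 genes in the 4 comparisons. Filled points are tested genes with 95% intervals, open points are genes that missed the filter, and the dashed line is the median of all genes. The intervals are not adjusted for the number of genes. In the Aoah panels those of Il1b in B16mhgp100 and of Csf3r, Tnf and Cxcl1 in B16F10 lie above 0. None of these genes passed in limma. In B16F10, 18.2% of all genes had an unadjusted p below 0.05 in limma, and the tested members entered through the Aoah tumours.

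The third comparison tested whether the Aoah difference itself was unequal in the 2 models, in a fit of all 12 libraries. Of 9 members tested, 0 passed, beside 0.0302% of 16556 genes, and 0 had an unadjusted p below 0.05, beside 5.65%. Of the 9, 4 lay above 0, beside 61.5% of all genes. The widest gap was that of Tnf, 0.85 higher in B16F10 (SE 0.58, 95% interval -0.42 to 2.12, limma adjusted p = 0.849). The gap of Il1b was -0.08 (95% interval -1.51 to 1.34), and that of Cxcl1 was -0.26 (95% interval -2.15 to 1.64). Intervals of this width leave room for differences of 1 log2 unit in either direction for all members but Tnf and Il6, so equal effects are not shown.

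The fourth comparison set the Vector tumours of the 2 models side by side. All 9 tested members were lower in B16F10 in value, and 0 passed in limma, beside 1.88% of 16556 genes. The differences ran from -0.30 for Cxcl1 to -1.65 for S100a8 (SE 0.91, 95% interval -3.65 to 0.35, limma adjusted p = 0.520), with a median of -0.48 beside -0.11 over all genes. At an unadjusted p below 0.05 there were 0 members, beside 12% of all genes, and 40.0% of all genes lay above 0. S100a8 and Il1b did not overlap between the 2 Vector groups, beside 20.4% of all genes with the B16F10 tumours lower. For Il1b the difference was -1.0 (SE 0.46, 95% interval -2.01 to 0.01, limma adjusted p = 0.415).

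Across the IL-1 list, 2 of 17 tested genes passed in the Vector comparison, both lower in B16F10, as were 1.09% of all genes. Casp1 stood at 5.94 and 3.71 TPM in B16F10 Vector tumours and at 41.04, 22.27, 44.49 and 42.61 TPM in B16mhgp100 Vector tumours. Its difference was -2.71 (SE 0.35, limma adjusted p = 0.00387), and the call was lost without B16F10 Vector 2 (adjusted p = 0.0819 in limma). Gsdmd, which encodes the pore protein gasdermin D that caspase 1 cleaves, stood at 12.30 and 10.76 TPM against 41.74, 22.63, 45.17 and 42.39 TPM. Its difference was -1.59 (SE 0.29, limma adjusted p = 0.0217). That call was lost without B16F10 Vector 1 or Vector 2 and without B16mhgp100 Vector 1, Vector 3 or Vector 4, at adjusted p of 0.0846, 0.257, 0.0593, 0.0711 and 0.0741 in limma. No member of the other 5 pathway lists passed in this comparison.

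By mean level, B16mhgp100 Aoah was the first of the 4 groups for 9 of the 10 genes, and B16F10 Aoah was the first for Tnf. B16F10 Vector was the last for 9 genes, and B16F10 Aoah was the last for Cxcr2. Neighbours in this order overlapped in most cases. They did not for Il1b, Il1r2 and Cxcl2 between B16F10 Aoah and B16F10 Vector, for Cxcl1 between B16F10 Aoah and B16mhgp100 Vector, and for Cxcr2 between B16mhgp100 Vector and B16F10 Vector. Every one of these pairs holds a B16F10 group of 2 tumours. No share over all genes is given for them, so nothing is read from these gaps. The summed neutrophil markers, which include the neutrophil genes of the 10, put B16F10 Vector above B16F10 Aoah by median, at 11.23 and 4.98 TPM. The B16F10 Vector sums were 20.17 TPM in Vector 1 and 2.29 TPM in Vector 2. In Vector 1 the neutrophil gene Retnlg held 17.00 TPM of the sum.

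Markers of several other cell types moved with the genes across the B16mhgp100 tumours. The 3 libraries with the largest sum of the 10 genes, Aoah 4, Aoah 2 and Vector 1, also had the 3 largest sums of the 10 macrophage and monocyte markers, at 1194.55, 1697.26 and 875.05 TPM. The range of that sum was 191.42 to 1697.26 TPM in Aoah and 170.24 to 875.05 TPM in Vector tumours. The same 3 libraries had the largest sums of the 6 fibroblast markers, at 622.94, 940.32 and 478.30 TPM, where the range was 82.64 to 940.32 TPM in Aoah and 89.80 to 478.30 TPM in Vector tumours. The 5 melanocyte markers had their 3 lowest sums of the 12 libraries in these tumours, at 5979.72, 8617.75 and 9428.62 TPM, and the 5 skeletal muscle markers had their 3 highest of the B16mhgp100 tumours, at 3287.41, 132.54 and 575.83 TPM. In B16F10 the fibroblast sum went the other way, with 136.72 and 102.81 TPM in Aoah and 234.10 and 225.51 TPM in Vector tumours. In B16mhgp100, 10 of 10 macrophage and monocyte and 6 of 6 fibroblast markers lay above 0. So did 3 of 3 tested mast cell markers and the 1 tested keratinocyte marker. The counts were 0 of 5 for melanocyte, 2 of 5 for endothelial, 4 of 5 for muscle and 3 of 4 for T cell markers. Of all genes there, 30.0% lay above 0, and 0 of these markers passed. In B16F10 the keratin gene Krt10 passed, at 9.49 and 13.37 TPM with Aoah and 0.28 and 0.58 TPM with Vector (difference 3.11, SE 0.30, limma adjusted p = 0.0384), and entered through the Aoah tumours alone. The part of these cells in the results was not tested.

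**Figure D4:**
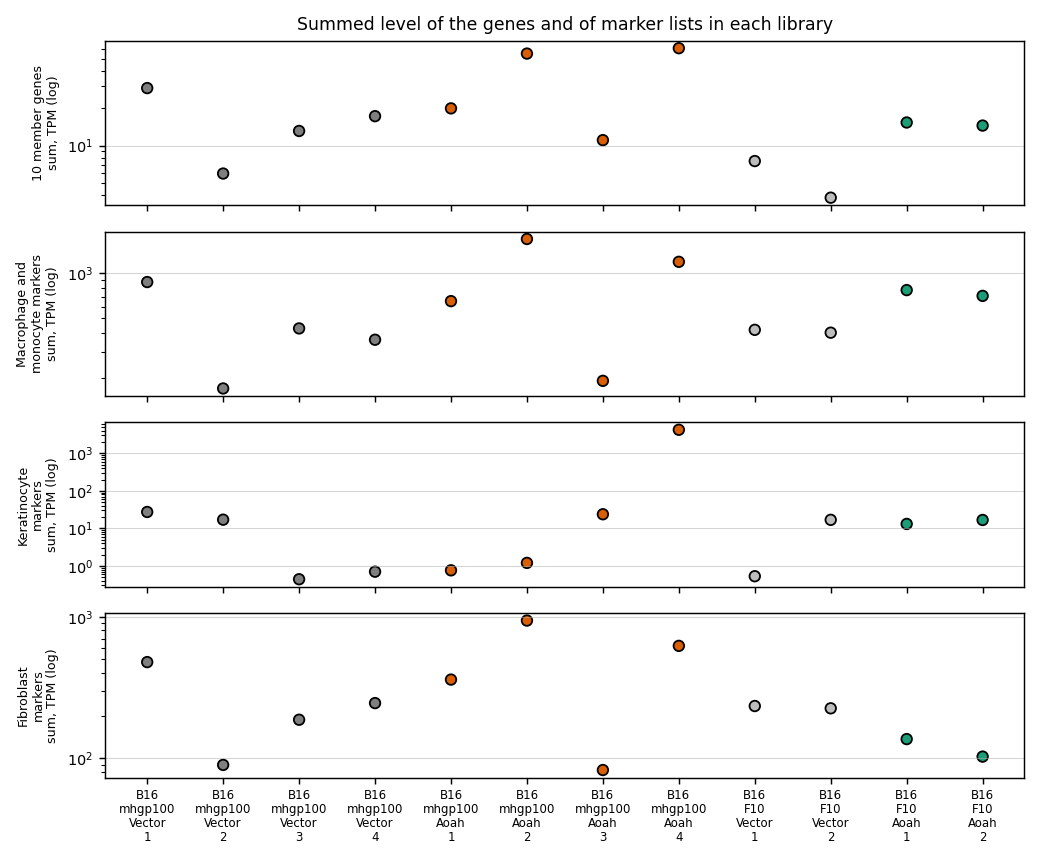
Summed TPM (vertical axis, log scale) of the 10 genes and of the macrophage, keratinocyte and fibroblast marker lists in each of the 12 libraries (horizontal axis). The 10 genes and the macrophage markers are highest in B16mhgp100 Aoah 2 and Aoah 4, and the keratinocyte markers reach 4241.79 TPM in Aoah 4 alone.

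Genes outside the 10 were ranked by how much their log2(TPM + 1) followed that of 4 members over the 12 libraries, as Pearson's r among 12306 genes, given as a description. The libraries share groups, and each value was chosen as the highest. For S100a8 the first genes were Cebpd (r = 0.934), a C/EBP transcription factor, Ms4a7 (r = 0.917), a macrophage membrane protein, and Fst (r = 0.909), which encodes follistatin. Cebpd stood at 15.87 TPM in B16mhgp100 Aoah 4 and at 8.78 TPM in Aoah 2, and at no more than 5.21 TPM elsewhere. For Il1b the first were Eif4ebp1 (r = 0.926), Nfix (r = 0.918) and Gadd45g (r = 0.904).

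For Tnf the first were the chemokine genes Ccl3 (r = 0.931) and Ccl4 (r = 0.919), then Cmtm7 (r = 0.889). Ccl4 stood at 10.88 and 11.27 TPM in the B16F10 Aoah tumours and at 1.73 and 1.42 TPM in the Vector tumours. For Cxcl1 the first was Cxcl5 (r = 0.916), a further CXCR2 ligand, then Dram1 (r = 0.914) and Fndc1 (r = 0.901). Without B16mhgp100 Aoah 4, r was 0.887 for S100a8 with Cebpd, 0.917 for Tnf with Ccl3 and 0.936 for Cxcl1 with Cxcl5.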

How the data were processed

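RNA was measured in 12 bulk tumours, grouped by sample title. Per the submitters' processing notes RSEM and DESeq2 were used on mm39, with no version or annotation stated there. The authors deposited expression as log2(TPM + 1), back-transformed here to TPM. The authors also deposited, per model, a mean normalised count (a signal averaged over libraries), a log2 fold change with its error, a test score and p-values. Their fold changes ran in the direction Aoah minus Vector (r = 0.909 and 0.930 across genes).

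Tests used limma 3.58.1 in R 4.3.3 on log2(TPM + 1), a scale that understates changes of low genes, with an intensity trend, 2-sided, adjusted by Benjamini-Hochberg over all genes, at a threshold of 0.05. A gene entered a fit when it reached 1 TPM in at least the smaller group's number of libraries. The models were fitted separately, and the comparisons between models used all 12 libraries. The fits were also run on simulated data, with larger changes placed in more abundant genes. Their power to detect changes of the members was not tested. No count test was run, since no counts per library were used. TPM keeps no depth, so no counting interval is given.

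The members, 6 pathway lists of 76 genes and 9 marker lists were chosen with earlier results of these data known. Named are all 10 members, up to 4 list genes past the threshold per comparison or else up to 2 with the smallest p, and the 3 genes most like each of 4 members. Gene names outside this rule, such as granule genes, Il1rn, Il1r1, Mrc1, Csf3 and Csf2, were chosen after their values were seen, as were the markers quoted singly. RSEM shares reads between near-identical genes, and strand use is not stated. The repertoire table was not used.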

Additional observations from a re-analysis of the deposited data

Results flagged for a closer look

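Among 38 sets of 4 tumours examined (10 genes and 9 marker sums in both B16mhgp100 groups), 4 held a tumour far from the other 3 by Dixon's test, where chance gives about 1 in 20. Tnf stood at 3.03 TPM in Vector 1, and the other Vector tumours held 0.57 to 0.88 TPM. Without Vector 1 the Aoah minus Vector difference of Tnf was 0.84 in place of 0.52. The keratinocyte markers summed to 4241.79 TPM in Aoah 4 and to at most 23.75 TPM in the other Aoah tumours. The skeletal muscle markers summed to 3287.41 TPM in Aoah 4, with at most 132.54 TPM in the other Aoah tumours, and to 575.83 TPM in Vector 1, with at most 84.18 TPM in the other Vector tumours.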

How the results depend on the processing

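Over the alternatives in the processing and the libraries left out in turn, 0 of the member differences lost a call, since none was called, and 193 of 202 values under another setting and 288 of 308 values with 1 library left out kept their sign and their side of the threshold. With array weights, in B16mhgp100, S100a8 was -0.23 and S100a9 was -0.65, and in the difference between models S100a9, Il1b and Il1r2 were 0.63, 0.0897 and 0.0645. With a pseudocount of 0.1, Il1b and Cxcl1 were 0.38 and 0.0242 in the difference between models. With single libraries left out, the B16mhgp100 ranges were -0.12 to 1.23 for S100a8, -0.0357 to 1.03 for S100a9, -0.18 to 0.52 for Csf3r and -0.11 to 0.60 for Cxcl2. In the difference between models they were -0.54 to 0.88 for S100a8, -0.998 to 0.0703 for S100a9, -0.45 to 0.28 for Il1b, -0.72 to 0.27 for Cxcl1 and -0.0230 to 0.70 for Cxcl2. The cause was not tested.

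Counts of all genes past the threshold moved more. In B16mhgp100, where it was 0, the count was 1 with a pseudocount of 0.1 or no intensity trend, 5 with array weights, and 0 to 1 with single libraries left out. In B16F10, where it was 50, it was 32 with a pseudocount of 0.1, 0 with no filter (3335 at an unadjusted p below 0.05 in limma), 131 with median-of-ratios scaling, 115 with array weights, 16 with no intensity trend, and 105 to 2394 with single libraries left out. In the difference between models, where it was 5, it was 46 with no filter, 10 with scaling, 31 with array weights, 11 with no trend, and 2 to 45 with single libraries left out. In the Vector comparison, where it was 312, it was 487 with scaling, 515 with array weights, and 55 to 2089 with single libraries left out, the first without B16F10 Vector 2 and the last without B16mhgp100 Aoah 4.

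Equal replicate numbers share only a number. The deviations of equal-numbered tumours correlated between -0.289 and 0.017 in B16mhgp100 and at -0.108 in B16F10. With the replicate number as a block, the count was 0 in B16mhgp100, 765 in B16F10 and 2 in the difference between models, and Tnf passed in B16F10 at 1.38 (limma adjusted p = 0.0133). With crossed numbers in B16F10, an alternative added after seeing the data, it was 910. In the Vector comparison the block lies within a model and could not be fitted. With single libraries left out, the difference of Tnf in B16F10 ran from 1.21 without Vector 2 to 1.54 without Vector 1.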

Other observations

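Retnlg, a neutrophil gene of the resistin family, stood at 17.00 TPM in B16F10 Vector 1, a library where S100a8 was listed at 0. It was at 0.83 TPM in B16F10 Vector 2 and at 4.85 TPM in B16mhgp100 Aoah 4, the next highest. Its paralogue Retnla, known from alternatively activated macrophages, stood at 570.61, 339.80 and 992.11 TPM in the same 3 libraries. RSEM shares reads between near-identical genes. Whether it did so between Retnla and Retnlg was not tested, and the Retnlg value is uncertain.

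Mast cell genes also varied with the B16mhgp100 tumours. The 6 mast cell and basophil markers summed to 38.50 TPM in Aoah 4, 26.83 TPM in Vector 1 and 22.83 TPM in Aoah 2, and to 0.56 and 0.89 TPM in Aoah 3 and Vector 2. Mcpt4, a mast cell protease, stood at 13.34, 8.07 and 5.02 TPM in the first 3 of these libraries and at 0.00 and 0.25 TPM in the last 2.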
